A study of Drosophila melanogaster with 2 samples.

Results

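The genes described here encode the proteins of the cytoplasmic ribosome of Drosophila melanogaster, and the data are binding sites of Onecut, a DNA-binding regulator of the cut homeobox class. The family holds 93 of the 13945 protein-coding genes annotated on the chromosome arms, 54 for the large and 39 for the small subunit. Its members were chosen by symbol, as genes whose names begin with RpL or RpS, together with the stalk genes RpLP0, RpLP1 and RpLP2 and with sta, the small subunit gene stubarista. Genes of the mitochondrial ribosome were left out. The family was selected on its already known share of genes with a Onecut peak, so that share is a description and was not tested.

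Chromatin came from whole embryos aged 0 to 24 hours, of the transgenic fly strain onecut-GFP, labelled as carrying an insertion aimed at onecut, which makes Onecut fused to the enhanced green fluorescent protein (eGFP). An antibody to GFP precipitated the sheared chromatin, and the 2 libraries are biological replicates 1 and 2 of 1 group, with no second condition. Per the labels nothing limits the chromatin to a tissue or a stage, and the promoter that drives the fusion is not given in the sources used here. Because all cells of the embryo are mixed, occupancy in few cells and weak occupancy in many cannot be told apart.

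A ribosome joins a large subunit, which forms peptide bonds, to a small subunit, which reads the messenger RNA. Embryos need the proteins of both in near equal numbers, and fly genes for them are known for very active, housekeeping promoters whose transcripts start with a run of pyrimidines, the TCT initiator. Loss of 1 copy of many of these genes gives the Minute phenotype of slow growth and thin bristles.

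A gene was counted as carrying a Onecut summit when the highest point of at least 1 peak lay between 1000 bp upstream of the gene and its end. The main list was the conservative one of both replicates. The authors limited it to peaks with a low irreproducible discovery rate (IDR). The IDR is small where a peak takes a like rank, and a high one, in both inputs. In that list 76 of the 93 members carried a summit, or 81.7%, where the share over all protein-coding genes was 31.3%. The peak lists give 83 pairs of a summit and a member. Of these, 77 were at the promoter, no more than 500 bp from a transcription start site of the member, 6 lay farther upstream, and 0 lay farther inside the gene, in an intron or a coding exon.

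The promoter sequences that the results turn on are given first, 80 bases before to 19 bases after a start site, 5′ to 3′ on the strand of the gene, in dm6 (Release 6) coordinates. The start site is the one nearest to the summit, or the canonical one for a gene without a summit. Capitals mark 3 kinds of element. TATCGATA is the DNA replication-related element, known as the site of the factor DREF, and it contains ATCGAT, which is also a form of the Onecut site and was marked on its own as well. GGTCACACT, or AGTGTGACC on the other strand, is the core promoter element called motif 1. CTTT with its C within 5 bp of the start site was taken as a match to the core of the TCT initiator. The C need not be the first base of the transcript: at RpL27 and RpLP1 it stands 5 bp after the start site.

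The first 4 windows belong to 4 members with the highest peaks, RpS27, RpL7, RpL14 and RpS4, and show the sequence around 1 start site of each. Their summits lay 5 bp downstream, 48 bp downstream, 35 bp upstream and 7 bp upstream of the start site. The RpL7 window holds motif 1 and those of RpL14 and RpS4 hold CTTT, while that of RpS27 holds none of the marked elements. RpS27 and RpL7 have CTTT within 5 bp of another annotated start site, which is not the one printed.
RpS27, chr3R:25247495-25247594, - strand: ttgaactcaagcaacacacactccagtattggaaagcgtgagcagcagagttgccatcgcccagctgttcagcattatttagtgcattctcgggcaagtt
RpL7, chr2L:10200924-10201023, + strand: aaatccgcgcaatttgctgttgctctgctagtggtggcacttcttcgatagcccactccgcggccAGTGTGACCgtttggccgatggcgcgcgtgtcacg
RpL14, chr3L:8600926-8601025, + strand: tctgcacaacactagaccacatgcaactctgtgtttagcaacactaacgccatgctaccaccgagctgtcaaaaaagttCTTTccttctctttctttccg
RpS4, chr3L:13041721-13041820, + strand: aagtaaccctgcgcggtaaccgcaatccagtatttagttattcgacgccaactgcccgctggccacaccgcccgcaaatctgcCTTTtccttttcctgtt

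The next 5 windows are examples of these elements at members with a summit. RpL27, RpS25 and RpS29 carry the palindrome TATCGATA, and the stalk genes RpLP0 and RpLP1 carry motif 1. In each of these, CTTT stands within 5 bp of the start site. In windows of the same length, RpL10Ab, RpL34a, RpL36, RpL36A, RpL37-1, RpS12 and RpS7 hold TATCGATA without CTTT. RpS14a, RpS15Aa and RpS6 hold both. Among members without a summit in the main list, RpL24-like and RpS13 hold TATCGATA there, and RpL7-like holds it with CTTT.
RpL27, chr3R:25685032-25685131, - strand: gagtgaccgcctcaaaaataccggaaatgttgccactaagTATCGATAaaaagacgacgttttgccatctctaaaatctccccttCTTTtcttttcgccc
RpS25, chr3R:11216268-11216367, - strand: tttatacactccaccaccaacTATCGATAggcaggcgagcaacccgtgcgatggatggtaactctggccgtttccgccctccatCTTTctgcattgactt
RpS29, chr3R:9778017-9778116, + strand: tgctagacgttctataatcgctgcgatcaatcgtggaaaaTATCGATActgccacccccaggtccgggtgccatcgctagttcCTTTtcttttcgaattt
RpLP0, chr3L:22076012-22076111, + strand: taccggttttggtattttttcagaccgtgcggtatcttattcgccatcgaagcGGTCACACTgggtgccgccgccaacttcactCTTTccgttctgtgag
RpLP1, chr2L:419872-419971, + strand: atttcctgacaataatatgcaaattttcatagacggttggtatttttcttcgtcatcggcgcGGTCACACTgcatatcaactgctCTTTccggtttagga

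The last 8 windows contrast genes with and without a summit of their own. RpL10Ab, RpS5a and RpS19a had one, and their second copies RpL10Aa, RpS5b and RpS19b had none at the start site. RpS3 and RpL35 did not pass the authors' threshold, with IDRs of 0.0230 and 0.0312 in the ranked list of both replicates. Both windows hold CTTT.
RpL10Ab, chr3L:11822771-11822870, + strand: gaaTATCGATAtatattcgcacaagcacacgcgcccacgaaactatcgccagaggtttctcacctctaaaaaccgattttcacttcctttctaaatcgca
RpL10Aa, chr3R:15037286-15037385, + strand: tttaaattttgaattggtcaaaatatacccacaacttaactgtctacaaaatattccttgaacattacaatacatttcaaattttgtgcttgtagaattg
RpS5a, chrX:17148245-17148344, - strand: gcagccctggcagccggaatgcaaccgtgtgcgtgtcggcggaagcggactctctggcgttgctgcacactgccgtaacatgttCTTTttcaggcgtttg
RpS5b, chr3R:14901544-14901643, - strand: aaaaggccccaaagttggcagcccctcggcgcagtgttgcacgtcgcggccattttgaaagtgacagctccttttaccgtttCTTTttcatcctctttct
RpS19a, chrX:16637814-16637913, + strand: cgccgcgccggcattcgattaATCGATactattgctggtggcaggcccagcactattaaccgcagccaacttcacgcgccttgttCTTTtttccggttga
RpS19b, chr3R:23933511-23933610, - strand: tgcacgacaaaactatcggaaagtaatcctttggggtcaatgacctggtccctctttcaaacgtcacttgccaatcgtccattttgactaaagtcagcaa
RpS3, chr3R:23358732-23358831, + strand: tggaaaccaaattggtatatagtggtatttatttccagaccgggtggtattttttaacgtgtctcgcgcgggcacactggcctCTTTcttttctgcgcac
RpL35, chrX:5672654-5672753, + strand: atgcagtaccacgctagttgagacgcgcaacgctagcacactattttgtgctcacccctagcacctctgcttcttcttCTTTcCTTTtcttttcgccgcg

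The lists of the single replicates gave close counts. With replicate 1 alone, 74 members (79.6%) carried a summit beside 26.2% of all protein-coding genes. With replicate 2 alone, 71 members (76.3%) did, beside 28.6%. The list from pooled reads gave 75 members (80.6%) beside 32.3%. With only summits within 500 bp of a start site counted, 73 members (78.5%) remained in the main list beside 23.4% of all genes. In the ranked list of both replicates, which has no threshold, 85 members (91.4%) had a peak beside 56.3% of all genes.

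Peak height is the deposited signal value, whose scale is not given, so it was compared only within 1 list. The highest summits of the 76 members had a median signal of 299 in the main list, where the median over its 6747 peaks on the arms was 149. Their median percentile within the list, the share of peaks with lower signal, was 81.1, with a range from 5.85 to 96.4. Of the 76 members, 68 had a peak in the upper 50% of the list and 18 in its top 10%. The highest of them, at RpS27, ranked 240.

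**Figure D1:**
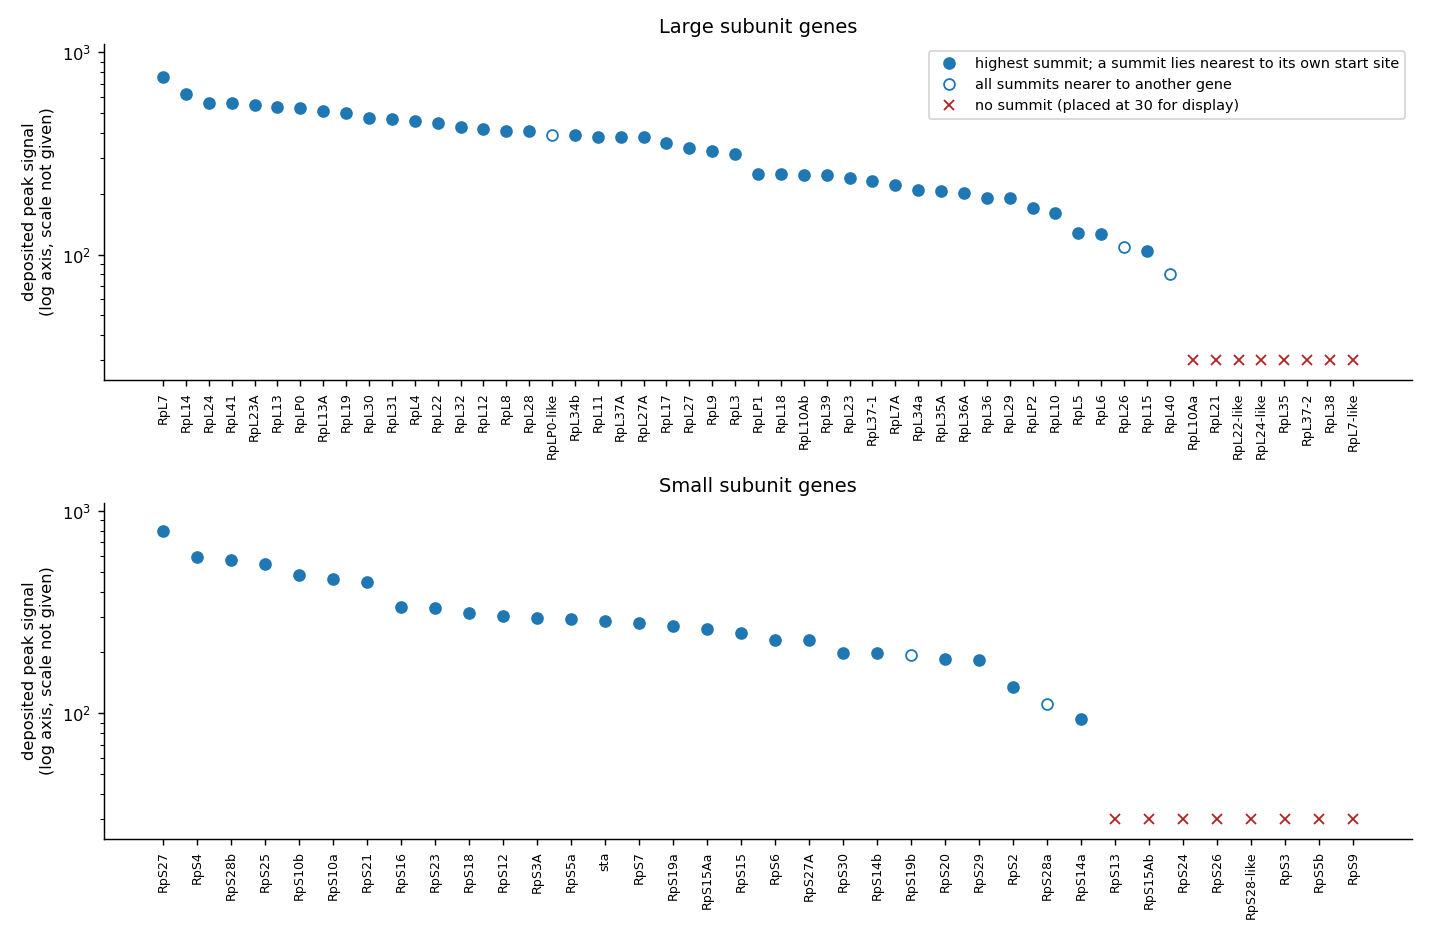
Each point is 1 of the ribosomal protein genes reported by name, with large subunit genes in the upper panel and small subunit genes in the lower one, in falling order of the deposited signal of its highest summit in the main list (log axis, scale not given). Filled points are genes with a summit nearest to their own start site, open points are genes whose summits all lie nearer to another gene, and crosses, placed at 30 for display, mark genes without a summit; the filled points run from 93.5 to 800.

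The 10 highest peaks belonged to 6 large and 4 small subunit genes, and all 10 had an IDR of 0.00001, the lowest value that occurs. RpS27, a zinc finger protein of the small subunit, had the highest, at chr3R:25247346-25247681, with a signal of 800 in the main list, 405 in replicate 1 and 387 in replicate 2. RpL7, a large subunit protein, came next at chr2L:10200891-10201208 with 753, 301 and 445. In the lists of the single replicates they ranked 151 and 338 (RpS27) and 316 and 254 (RpL7), so that each led the other in 1 of them.

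RpL14, a large subunit protein, had a peak at chr3L:8600815-8601130 with a signal of 623 in the main list, 330 in replicate 1 and 307 in replicate 2. RpS4, a small subunit protein, had one at chr3L:13041604-13041954 with 590, 337 and 273. RpS28b, a small protein near the messenger RNA exit, followed at chrX:9554432-9554741 with 570, 306 and 276. All of these summits lay within 50 bp of a start site.

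RpL24, a protein that bridges the subunits, had a peak at chr2L:13394971-13395288 with a signal of 563 in the main list, 246 in replicate 1 and 304 in replicate 2. RpL41, a very short bridge peptide, had 563, 250.2 and 318 at chr2R:24903823-24904150, with the summit 60 bp upstream. RpL23A, which lines the exit of the peptide tunnel, had 547, 242 and 300.2 at chr3L:1668556-1668882, with the summit 58 bp upstream. For these 3 genes the value was higher in replicate 2 than in replicate 1, but signals from different lists may not share a scale.

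RpS25, a small subunit protein used in internal initiation, had a peak at chr3R:11216189-11216490 with a signal of 545 in the main list, 242 in replicate 1 and 284 in replicate 2. RpL13, a large subunit protein, had 536, 255 and 267 at chr2L:9966973-9967446. Both summits lay upstream of the start site, by 27 bp and 29 bp.

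Over the 69 members with a summit in the main list and in both replicate lists, the signals in the replicate lists had a Spearman correlation of 0.894 and a Pearson correlation of 0.876. This is a correlation across genes of the same 2 libraries, and genes are not replicates of a condition. The median distance between the 2 replicates' summits at a member was 11 bp. It was at most 20 bp for 54 of the 69 members and at most 50 bp for 68, the exception being RpL34a with 170 bp. Signal was higher in the list of replicate 2 for 54 of the 69 members, but the median percentile was close, 78.4 for replicate 1 and 80.2 for replicate 2 over the same 69 genes.

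**Figure D2:**
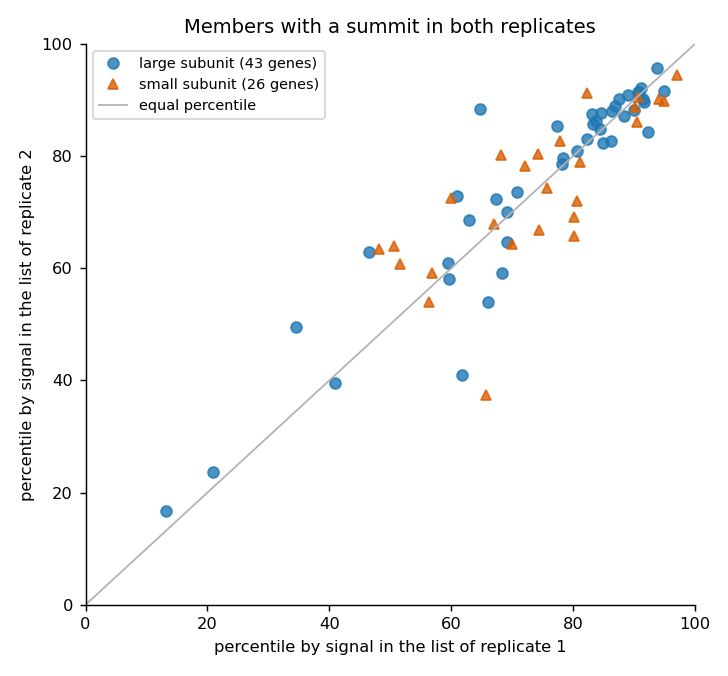
Each point is 1 of the 69 ribosomal protein genes with a summit in the main list and in both replicate lists, at the percentile of its highest peak by signal in the list of replicate 1 (horizontal axis) and of replicate 2 (vertical axis); circles are large and triangles small subunit genes, and the line marks equal percentiles. Most points lie near the line (Spearman 0.894), and the lowest are large subunit genes.

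A few members differed between the lists. RpS29, RpS28a and RpL15 passed the threshold in replicate 1 and not in replicate 2, and RpS2 and RpL6 did the reverse. For RpS29, a zinc-binding small subunit protein, the signal was 114 in replicate 1, and the ranked peak of replicate 2, with a signal of 83.9, had an IDR of 0.0124, just past the threshold of 0.01. RpS2, at the messenger RNA entry, mirrored it with 93.0 in replicate 2 and a ranked peak of 44.5 with an IDR of 0.0110 in replicate 1. Both absences lay close to the threshold.

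RpL6 had a signal of 79.6 in replicate 2 and a ranked peak of 42.1 with an IDR of 0.0505 in replicate 1. RpS28a had 57.1 in replicate 1 and a ranked peak of 45.8 with an IDR of 0.0491 in replicate 2. RpL15, a large subunit gene, had 51.3 in replicate 1 and no ranked peak in replicate 2. These 3 were farther from the threshold in the replicate that lacked them.

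RpS14a and RpL40 were in the main list but in neither replicate list. RpS14a, a copy of the RpS14 gene, had ranked peaks of 41.7 and 51.0 in replicates 1 and 2, with IDRs of 0.125 and 0.485. RpL40, which encodes a fusion of ubiquitin with a ribosomal protein, had ranked peaks of 40.2 and 46.2, with IDRs of 0.204 and 0.0315. The reverse also occurred: RpL38 was in the list of replicate 1 and not in the main list, and 15 members without a summit were in none of the 3 lists.

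The values just inside and just outside the threshold were close. The 3 lowest members inside it were RpL40 with a main signal of 79.8 and an IDR of 0.00604, RpS14a with 93.5 and 0.00408, and RpL15 with 105 and 0.00232. Just outside, in the ranked list of both replicates, were RpS3, which lines the messenger RNA entry, with a signal of 67.3 and an IDR of 0.0230, and RpL35, near the tunnel exit, with 61.3 and 0.0312. RpS26, near the messenger RNA exit, had 56.5 and 0.0420. In the single replicates these were farther from the threshold. RpS3 had no ranked peak in replicate 1 and an IDR of 0.0637 in replicate 2. RpL35 had IDRs of 0.397 in replicate 1 and 0.0563 in replicate 2, and RpS26 had 0.520 and 0.177.

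Of the 9 members with only a ranked peak, 6 had it within 100 bp of the start site. The ranked summits of RpL35, RpS9, RpS3, RpS13, RpS15Ab and RpS24 lay 5 bp, 11 bp, 22 bp and 39 bp downstream, 47 bp upstream and 65 bp downstream of the start site. RpS9, needed for accurate decoding, had an IDR of 0.0662, RpS15Ab 0.208, RpS24 0.270 and RpS13 0.436. Those of RpL7-like (IDR 0.108), RpS5b (0.649) and RpS26 lay 319 bp upstream, 529 bp upstream and 817 bp downstream.

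The other 8 members without a summit had no peak in the ranked list of both replicates either. They included RpL10Aa, RpL21, RpL22-like, RpL24-like, RpL37-2, RpL38 and RpS28-like. RpL38, which in mice is known for an effect on the translation of homeobox messages, had a signal of 74.4 in replicate 1 (IDR 0.00654, 21 bp upstream), no ranked peak in replicate 2, and 152 in the pooled list (IDR 0.000388). Of the 17 members without a summit in the main list, RpL21, RpL35, RpL38, RpS3, RpS9, RpS13, RpS24 and RpS26 have no second copy in the family.

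By subunit, 46 of 54 large subunit genes (85.2%) and 30 of 39 small subunit genes (76.9%) carried a summit in the main list, a difference of 8.26 percentage points. Both shares were above the 31.3% of all protein-coding genes. The direction held in both replicate lists, with 45 against 29 genes in replicate 1 (a difference of 8.97 points) and 44 against 27 in replicate 2 (12.3 points). It turned in the ranked list without a threshold, where 48 large and 37 small subunit genes had a peak, a difference of -5.98 points. It also turned when the upstream sequence was left out, with 19 large and 16 small subunit genes (-5.84 points), beside 17.3% of all genes under that rule.

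The highest summits of large subunit genes had a median signal of 365 in the main list, with an interquartile range from 211 to 456, and those of small subunit genes one of 275, from 198 to 336. The ranges overlapped almost in full, from 79.8 to 753 and from 93.5 to 800. The order of the medians was the same in both replicate lists, at 163 against 132 in replicate 1 and 194 against 142 in replicate 2. Of the 18 members in the top 10% of the list, 12 were large and 6 small subunit genes. Median gene length differed little, at 1374 bp and 1383.5 bp.

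Within the large subunit, the stalk genes differed in signal: RpLP0, the base of the stalk that recruits elongation factors, had a signal of 533, RpLP1 249.9 and RpLP2 170. RpL5 and RpL11, which join the large subunit as partners in a complex with ribosomal RNA, had 128 and 382. RpL13A (515), RpL19 (500.2), RpL30 (472), RpL31 (467), RpL4 (459.9) and RpL22 (446) followed the 7 highest. RpL32 (426), RpL12 (418), RpL8 (410.1), RpL28 (407), RpL34b (392), RpL37A (382), RpL27A (379.7), RpL17 (358), RpL27 (338), RpL9 (325) and RpL3 (314) were in the middle.

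Lower in the main list came RpL18 (249.8), RpL10Ab (247), RpL39 (247), RpL23 (239), RpL37-1 (231), RpL7A (221), RpL34a (208), RpL35A (207), RpL36A (202), RpL36 (191), RpL29 (191), RpL10 (161) and RpL6 (126). RpL26 had 109, from a summit 638 bp upstream.

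Within the small subunit, RpS10b (480.4), RpS10a (461) and RpS21 (447) followed the 4 highest, and a gap separated them from the rest. RpS16 (337), RpS23 (333), RpS18 (314), RpS12 (304), RpS3A (295), RpS5a (293), sta (287), RpS7 (278), RpS19a (271), RpS15Aa (262) and RpS15 (249) came next. RpS6, a target of the growth-regulated S6 kinase, had 231, and RpS27A, the second fusion with ubiquitin, also 231. RpS30 (198), RpS14b (198), RpS19b (194), RpS20 (185), RpS29 (184), RpS2 (136) and RpS28a (111) were among the lowest, above RpS14a.

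Members were present on every arm that was analysed. A summit was found at 14 of 19 members on 2L, beside 29.8% of all protein-coding genes there, and at 15 of 21 on 2R, beside 30.1%. On 3L it was 13 of 14 beside 32%, on 3R 19 of 23 beside 32.9%, and on X 14 of 15 beside 31%. RpS3A, the only member on 4, carried one, where 37.5% of all genes on 4 did.

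Some of the summits lay nearer to another gene. Of the 76 members, 71 had a summit nearer to their own start site than to that of any other protein-coding gene and within 500 bp of it, beside 18.3% of all protein-coding genes. They were 43 of 54 large (79.6%) and 28 of 39 small subunit genes (71.8%). All summits of the other 5 lay nearer to a neighbour. That of RpL26 lay 638 bp upstream of the gene, nearer to CG3902, that of RpL40 677 bp upstream, nearer to CG3702, and that of RpS19b 872 bp upstream, nearer to CG5854. RpLP0-like shared a summit 358 bp upstream with 14-3-3zeta, and RpS28a one 149 bp upstream with Axn, a component of the Wnt pathway.

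A protein-coding start site on the opposite strand within 500 bp, on either side of the member's own, was annotated for 37 members. Of these, 33 (89.2%) carried a summit, beside 45.5% of the 3878 protein-coding genes with such a neighbour. A summit nearest to the gene's own start site was present at 30 of the 37, beside 22.6%. Of the 56 members without such a neighbour, 43 (76.8%) carried a summit, beside 25.8% of the 10067 genes without one, and 41 one of their own, beside 16.6%. Among members as among all genes, the share was higher with an opposite-strand neighbour than without.

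Of the members, 7 had 2 summits. In 6 of them the second summit lay nearer to the start site of a neighbour and was the lower one. RpS28b had 570 at its own start site and 286 near l(1)G0320, and RpL32 426 and 166 near CG7943, both in 1 peak interval. RpS5a had 293 and 110.5 near Chchd2, RpL10Ab 247 and 131 near CG11597, and RpL34b 392 and 97.5 near CG8132. Both summits of RpL23 were nearest to RpL23 itself, with 239 at 270 bp upstream and 52.2 at 17 bp upstream.

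Where the family holds a second copy of a gene, the copies differed. Symbols alone define 14 pairs, with RpS28b in 2 of them, and the identity of the proteins was not computed. The first-named copy here is the one with the higher peak, so its lead is set by the choice. Both copies carried a summit in 6 pairs and 1 copy alone in 8. With summits nearer to another gene left out, both copies carried one in 3 pairs and 1 copy alone in 11. The 66 members with no second copy carried a summit in 57 cases (86.4%), 37 of 40 large and 20 of 26 small subunit genes. Of all protein-coding genes, 31.3% carried a summit, and 18.3% had one nearest to their own start site and within 500 bp.

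In 3 pairs each copy had a summit nearest to its own start site and within 500 bp of it. RpL34b and RpL34a had main signals of 392 and 208, and RpS10b and RpS10a 480.4 and 461. RpS14b and RpS14a had 198 and 93.5. The first copies had 179, 236 and 82.2 in replicate 1 and 227, 255 and 117 in replicate 2. RpL34a had 94.98 and 111, and RpS10a had 168 and 297. The RpS10a summit lay 407 bp upstream of the start site, where that of RpS10b lay 3 bp upstream. RpS14a and RpS14b are neighbours on X, and their values come from separate peaks.

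In 8 pairs 1 copy alone carried a summit. RpL7 (753), RpS28b (570), RpL24 (563) and RpL22 (446) were among the higher members of the family, while RpL7-like, RpS28-like, RpL24-like and RpL22-like carried none. RpL7-like and RpL24-like resemble assembly factors known from yeast, where Rlp7 and Rlp24 serve the maturing large subunit, and RpL22-like is best known from the testis. RpS5a (293), RpS15Aa (262), RpL10Ab (247) and RpL37-1 (231) carried summits and RpS5b, RpS15Ab, RpL10Aa and RpL37-2 did not. RpS5b is best known from the ovary.

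In the 3 remaining pairs the second copy had only a summit on the side of its neighbour. RpLP0 had a main signal of 533 and RpLP0-like, which resembles the yeast assembly factor Mrt4, had 392 beside 14-3-3zeta, with 106 in replicate 1 and 251 in replicate 2. RpS19a had 271 and RpS19b, best known from the germ line, had 194 beside CG5854. RpS28b had 570 and RpS28a 111 beside Axn.

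**Figure D3:**
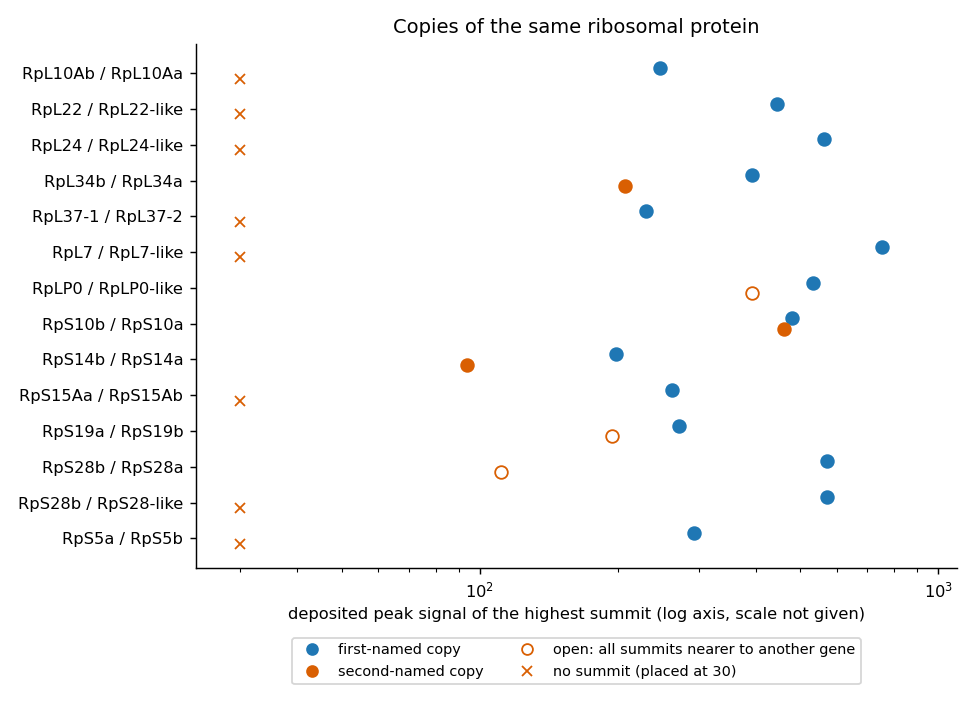
Each row is a pair of members set by symbol, with the deposited signal of the highest summit in the main list on a log axis (scale not given). Blue points are the first-named and orange points the second-named copies. Open points have all summits nearer to another gene, and crosses, placed at 30, have none. The second copy carries a summit nearest to its own start site, and within 500 bp of it, in 3 of 14 rows.

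Gene structure differed between the copies as well. Of the 14 second-named copies 5 have a single exon in the annotation (RpL10Aa, RpL37-2, RpS10a, RpS15Ab and RpS28a), and of the 13 first-named copies 0. CTTT stood within 5 bp of an annotated start site in 8 of 13 first-named and 4 of 14 second-named copies. RpL10Aa, RpS10a, RpS15Ab, RpS28a, RpS28-like, RpS19b, RpL22-like, RpL24-like, RpL34a and RpLP0-like lacked it there. In the windows printed above, RpS5b keeps CTTT as RpS5a does, and RpS19b and RpL10Aa hold none of the marked elements. Other pairs went the other way: RpL37-2 has CTTT there and RpL37-1 does not. From 250 bases before to 50 after the canonical start site, the second-named RpL24-like, RpL34a, RpL7-like, RpS14a and RpS15Ab hold TATCGATA. Among first-named copies, RpL10Ab, RpL37-1, RpS10b and RpS15Aa hold it.

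The summits sat close to the start site. Over the 72 promoter summits nearest to a member, the median position was -12.5 bp from the start site (negative is upstream), with an interquartile range from -32 to 4.25 bp. Over the 2908 other promoter summits in the list, the median was -46 bp, with a range from -142 to 31 bp. The median distance regardless of direction was 19 bp for members and 100 bp for the others, and 64 (88.9%) against 900 (30.9%) lay within 50 bp. Members of both subunits were placed alike, with a median of -10.5 bp for 44 summits of large and -13.5 bp for 28 of small subunit genes.

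**Figure D4:**
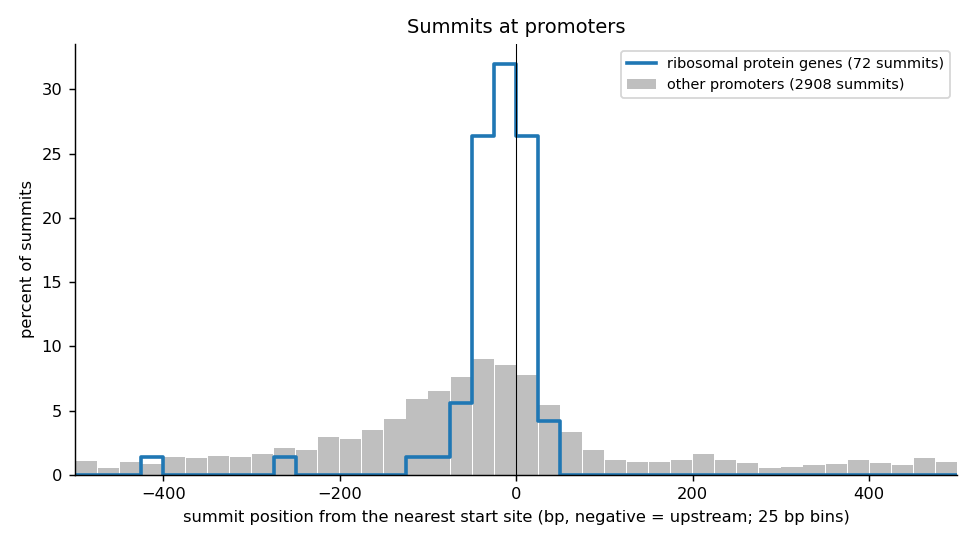
Distribution of promoter summits in the main list by position from the nearest start site in bp (negative is upstream), in 25 bp bins, as a percent of summits in each group. The blue outline holds the 72 summits of ribosomal protein genes and the grey bars the 2908 at other promoters; 88.9% of the blue and 30.9% of the grey summits lie within 50 bp of the start site.

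Peak height and width moved with the group. The median signal was 309 for members and 158 for the others, and the median width 287 bp and 436 bp, the width at which 16.7% and 53.2% of their peaks stood. At the 727 other promoters in the top 25% by signal, the median distance from the start site was 141 bp and 23.5% lay within 50 bp. At the 1362 other promoters with a width other than 436 bp, it was 130 bp and 23.7%. The 60 members' peaks of such widths had a median distance of 17 bp and the 12 of 436 bp one of 21.5 bp. The 40 members' summits as high as those 727 had a median distance of 24 bp, and the 32 lower ones one of 16.5 bp.

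At 8 of the 71 members with a summit of their own, chosen after the values were seen, the highest such summit lay more than 50 bp upstream. RpS10a (407 bp), RpL23 (270 bp) and RpS20 (123 bp) were the farthest, followed by RpL34a (83 bp), RpL41 (60 bp), RpL34b and RpL23A (58 bp) and RpS27A (57 bp). RpL23 also had a lower summit of its own 17 bp upstream.

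Sequence beneath the summits was searched within 50 bp on both strands, with the same search at the 2908 other promoter summits. ATCGAT occurred at 20 of 72 summits of members (27.8%, 95% Wilson interval 18.8% to 39.0%, counting error only) and 22.5% of the others. ATTGAT, the other form of the Onecut core, occurred at 3 (4.17%, 1.43% to 11.5%) and 16.5%. The 3 were RpL13A, RpS10a and RpS20. GAGAG, the site of the GAGA factor, occurred at 3 (4.17%), those of RpL29, RpL4 and RpS5a, and at 15.4% of the others.

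The longer palindrome TATCGATA lay in full within 50 bp at 12 of the 20 members with ATCGAT, among them RpL10Ab, RpL19, RpL27, RpL34a, RpL36, RpL36A, RpL39, RpL41, RpS12, RpS25 and RpS29. The 12 are 16.7% of members (9.80% to 26.9%), and 3.51% of other summits held it. At RpL28 the ATCGAT also belongs to a palindrome, which reaches beyond the window. At the other 7, RpL12, RpL13, RpL32, RpS19a, RpS28b, RpS30 and RpS7, ATCGAT stood outside the palindrome. Motif 1 occurred at 6 summits (8.33%), those of RpL27A, RpL37A, RpLP0, RpLP1, RpS15 and RpS23, and at 1.79% of the others.

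TATCGATA and ATCGAT lay mostly beside the members' summits, while motif 1 was within 25 bp at 4 of its 6 members and GAGAG at 2 of its 3. Those 6 and 3 summits are few, and at other promoters the counts were 26 of 52 for motif 1 and 222 of 449 for GAGAG. Within 25 bp, 2.78% of members' summits held TATCGATA and 8.33% ATCGAT, where 1.89% and 16.2% of other promoter summits did. Among the 19 members with TATCGATA within 100 bp the median distance from the summit was 40.5 bp, and among 189 other promoter summits 43.5 bp. For ATCGAT it was 32.5 bp over 26 members and 20.5 bp over 832 others.

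Whole promoters were searched as well, in members with and without a summit of their own. Over the 300 bases around the canonical start site, from 250 before to 50 after it, TATCGATA was present in 28 of 93 members (30.1%) and 8.95% of all protein-coding genes. It was present in 22 of the 71 members with a summit of their own (31.0%) and in 6 of the 22 without (27.3%). Those 6 are RpL24-like, RpL26, RpL7-like, RpS13, RpS15Ab and RpS24. ATCGAT was present in 41.9% of members and 22.7% of all genes, ATTGAT in 17.2% and 21.5%, motif 1 in 10.8% and 5.87%, and GAGAG in 17.2% and 30.3%. In members with and without a summit of their own, the shares were 40.8% and 45.5% for ATCGAT, 18.3% and 13.6% for ATTGAT, and 16.9% and 18.2% for GAGAG. Motif 1 was present in 9 of the 71 with one (12.7%) and 1 of the 22 without (4.55%).

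Matches to the initiator core were more frequent in members than in all genes. CTTT with its C within 5 bp of any annotated start site was found in 58 of 93 members (62.4%) and 8.07% of all protein-coding genes. It was found in 46 of the 71 members with a summit of their own (64.8%) and in 12 of the 22 without (54.5%). The split depended on the window: within 2 bp the counts were 17 (23.9%) and 3 (13.6%), and within 10 bp 63 (88.7%) and 13 (59.1%). Within 5 bp of the canonical start site only, they were 32 of 71 (45.1%) and 10 of 22 (45.5%), so the shares were alike there. Among the 12 without a summit of their own are RpL21, RpL35, RpL38, RpS3, RpS9, RpS13, RpS24 and RpS26. These genes carry CTTT within 5 bp of an annotated start site and no summit in the main list. A match to such short letters is a description of the sequence only.

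Many fly ribosomal protein genes host small nucleolar RNAs, guides of ribosomal RNA modification, in their introns. In the annotation 29 members hold one and 27 of these (93.1%) carried a summit, while RpS9 did not. Of all 96 protein-coding genes that hold one, those members included, 72 (75%) carried a summit. Of the 64 members without one, 49 did (76.6%), beside 31% of the 13849 genes without one.

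A pair of further lists of genes place the family among its partners in translation. Of 10 elongation factors and ribosome partners, 9 carried a summit in the main list, beside 31.3% of all genes. eEF1gamma, a subunit of the exchange factor for the carrier of aminoacyl-tRNA, had a signal of 723 at 7 bp upstream, and eEF1alpha2, a form of that carrier, 526.2 at 49 bp upstream. pAbp, the poly(A)-binding protein, had 591 at 489 bp downstream of a start site.

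eEF5 had 387 and Rack1, a scaffold on the small subunit, 385, both 2 bp upstream, eEF1alpha1 330 at 29 bp upstream, and eEF2, the translocase, 301 at 9 bp downstream. Tctp (208) and eEF1beta (192) had their highest summit 358 bp and 730 bp upstream, and eEF1delta had none.

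Of 12 nucleolar factors that assemble ribosomes, 5 carried a summit, beside 31.3% of all genes. Nopp140 (162), Ns1 (120.4) and Fib (120.2), the methyltransferase fibrillarin, had it 54 bp, 62 bp and 117 bp upstream of a start site. That of Nop56 (179) lay 743 bp upstream, and that of bys (231), 571 bp upstream, is the summit at the start site of RpS6. With only summits within 500 bp of a start site counted, 3 of the 12 remained, beside 23.4% of all genes. The count was 3 at an IDR of 0.001 or less, 8 in the pooled list and 0 with the upstream sequence left out. The shares of all genes under these rules were 22.2%, 32.3% and 17.3%. nop5, Nop60B, Nlp, Ns3, Nnp-1, pit and Non1 carried none. All 5, the summit that bys shares with RpS6 among them, had a signal below the members' median of 299.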

How the data were processed

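Chromatin of whole embryos was profiled by ChIP-seq in 2 biological replicates. The authors called peaks in dm6 against a control alignment, per the file headers in their read-me texts. Neither the aligner nor the caller is named in the sources used here, and the depth is unknown. The deposited signal of a peak was used only within 1 list, the deposited score is the scaled IDR as the values show, and the ranked lists hold the deposited -log10 of the IDR, which was at least 2.00 in the thresholded lists. Calls were made by the authors on each replicate, on both and on pooled reads.

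From these files the summit of each peak was placed (start plus offset) and joined to genes of Ensembl release 115 and the Release 6 genome with Python 3.11.15 and pandas 2.3.3. Distances were taken to the nearest annotated start site of the gene, the more upstream one in a tie. The counting and search functions were tested on simulated data. Members, lists and motifs were chosen with earlier results of these data known. No test was run: the design has 1 group, and genes are not replicates. A few members enter the counts but are not reported by name here. The rule for naming gave each other member once and full values to the 10 highest peaks, the 3 lowest inside the threshold, members without a summit, members that differ between replicates, pairs of copies and members with 2 summits. Alternatives were the pooled list, each replicate alone, an IDR of 0.001, the stronger 50% of peaks, other upstream lengths, other windows and other start sites. Chosen after seeing the data were the count by nearest start site, the splits of promoters by width and signal and of genes by arm, neighbour and small nucleolar RNA, the canonical start site for CTTT, and the 3 sequences in the closing observations.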

Additional observations from a re-analysis of the deposited data

How the results depend on the processing

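Of 86 alternative values for the results given, 67 were classed as close, 17 as moved and 2 as turned in direction. The class of close is wide for shares of sequences. With no upstream sequence 35 members carried a summit beside 17.3% of all genes, 19 large and 16 small subunit genes, and the difference between subunits turned to -5.84 points. The difference also turned in the ranked list without a threshold (-5.98), and was 10.8 in the pooled list and 3.13 with 2000 bp upstream. With 1 replicate alone it ran from 8.97 to 12.3, the second value without replicate 1. The members' median percentile was 82.7 in the pooled list, 72.2 at an IDR of 0.001, and from 77.6 to 79.7 with 1 replicate alone. The median distance from the start site was -18.5 bp with the canonical start site only, and from -11.5 to -10 bp with 1 replicate alone. Windows of 25 bp around the summit lowered the shares to 8.33% for ATCGAT, 1.39% for ATTGAT and 2.78% for TATCGATA. Windows of 100 bp, though classed as close, gave 36.1%, 9.72% and 26.4% for these, and 11.1% for GAGAG in place of 4.17%. At other promoter summits the 100 bp shares were 28.4%, 22.6%, 6.40% and 28.1%. CTTT was found in 21.5% of members within 2 bp of a start site, 81.7% within 10 bp, and 45.2% with the canonical start site only, where all genes gave 3.28%, 14.9% and 5.72%. No paired analysis was possible because there is 1 group. The unknown depth limits what the absence of a peak can show.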

Other observations

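After promoters of members had been read, 3 further sequences were chosen and counted on both strands, so their shares are a description of promoters already read. GCAGCCA was present within 250 bases before to 50 after the canonical start site in 14 of 93 members (15.1%) and 5.19% of all protein-coding genes. All 14 are among the 71 members with a summit of their own, and 0 of the 22 without one held it. They are RpL18, RpL24, RpL27A, RpL28, RpL31, RpL34b, RpL35A, RpL4, RpS18, RpS19a, RpS21, RpS27, RpS28b and RpS6. Within 50 bp of the summit it was found at 14 of 72 members' summits (19.4%) and 66 of 2908 other promoter summits (2.27%), and the median signal of members with it was 399 against 290.2 without. At the other promoter summits the order was the reverse, 134.8 with it and 158.7 without.

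GCCACACT, which shares its last letters with motif 1, was present in the promoters of 12 members (12.9%) and 2.23% of all protein-coding genes. Of the 12, 11 had a summit of their own and 1 did not. It lay within 50 bp of 10 of the 72 members' summits (13.9%) and 27 of the 2908 others (0.928%). Among the 12, RpL18, RpL24, RpL31 and RpL35A also belong to the 14 genes named above.

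GTATTTT was present in the promoters of 25 members (26.9%) and 16.1% of all protein-coding genes, in 19 of the 71 members with a summit of their own and in 6 of the 22 without. It lay within 50 bp of 9 of the 72 members' summits and 4.40% of the others.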
